A study of Mus musculus with 24 samples.

Results

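The 8 genes described here encode C-type lectin receptors and lie on mouse chromosome 6: Clec4n, Clec4d, Clec4e, Clec7a, Clec4a1, Clec4a3, Clec4a2 and Clec12a. They were taken by symbol, whatever their values, from the 25746 genes counted in each library, and all 8 passed the filter on low counts that left 11885 genes for testing. RNA came from eosinophils grown out of C57BL/6 bone marrow, expanded until day 4 in 100 ng/ml of SCF (stem cell factor) and of FLT3L (FLT3 ligand) and matured from then on in 10 ng/ml of IL-5 (interleukin-5, the eosinophil growth factor). Live cells were seeded on day 13 in IL-5, which every group therefore received, and were kept overnight with or without GM-CSF (granulocyte-macrophage colony-stimulating factor) at 20 ng/ml. The 8 groups of 3 libraries were CSF2ra-/- cells with GM-CSF, CSF2ra-/- cells left untreated, cells labelled Irf5-/- with GM-CSF, cells labelled Irf5-/- left untreated, wild-type (WT) cells with GM-CSF and IL-10, WT cells with GM-CSF, WT cells with IL-10 and WT cells left untreated. The labels give no IL-10 dose and no description of the knockout alleles. They do not say whether libraries of a group came from separate mice or cultures, so p-values measure only the spread between these libraries.

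C-type lectin receptors of myeloid cells bind sugars and lipids of microbes and of dying cells. The products of Clec4n (Dectin-2), which binds fungal mannans, and of Clec4e (Mincle), which binds mycobacterial glycolipids, signal through the Fc receptor gamma chain, encoded by Fcer1g, to the kinase Syk and the adaptor Card9. The product of Clec4d (MCL or Dectin-3) forms complexes with Mincle and Dectin-2, and that of Clec7a (Dectin-1) binds fungal beta-glucan and reaches Syk through a motif in its own tail. The products of Clec4a2 (DCIR) and Clec12a, a receptor for uric acid crystals, carry inhibitory motifs that recruit the phosphatases encoded by Ptpn6 and Ptpn11, while Clec4a1 and Clec4a3 encode relatives of DCIR. GM-CSF acts on myeloid cells through a receptor whose ligand-binding chain is encoded by Csf2ra.

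Total counts per library ranged from 6222979 to 18709153, and no pair of replicates agreed within sampling noise. The 9 eosinophil markers, among them Prg2 and Epx, summed to between 72783 and 109656 CPM (read counts relative to the library's total, scaled by TMM) in every library. Csf2ra stood at 28.5 to 39.8 CPM in the 6 CSF2ra-/- libraries and at 41.8 to 83.8 CPM in the other 18. Irf5 reads were not lowered under the Irf5-/- label, with 1394 to 1999 CPM in each of the 6 libraries that carry it and 28.3 to 94.3 CPM in the other 18. Every direction drawn from these 6 libraries rests on a label that the gene's own count does not bear out. The reason was not tested, as the labels do not describe the allele. The summed level of 4 Y-linked genes differed between libraries of the same group, with ranges of 148 to 185 CPM in CSF2ra-/- cells given GM-CSF, 13.2 to 163 CPM in libraries labelled Irf5-/- given GM-CSF and 52.5 to 178 CPM in WT cells given GM-CSF. That sum, taken as a covariate, changed no call on the 8 genes.

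On GRCm38 the genes form 2 blocks separated by 6052.8 kb. The centromeric block holds, in order, Clec4a1 (ENSMUSG00000049037, chromosome 6, 122921848 to 122934619, plus strand), Clec4a3 (ENSMUSG00000043832, 122952515 to 122969875, plus), Clec4a2 (ENSMUSG00000030148, 123106428 to 123143999, plus), Clec4n (ENSMUSG00000023349, 123229843 to 123247021, plus), Clec4d (ENSMUSG00000030144, 123262111 to 123275265, plus) and Clec4e (ENSMUSG00000030142, 123281789 to 123289870, minus). The telomeric block holds Clec12a (ENSMUSG00000053063, 129342691 to 129365303, plus) and Clec7a (ENSMUSG00000079293, 129461591 to 129472779, minus), which GENCODE lists as a polymorphic pseudogene. Clec4d begins 15.1 kb after the end of Clec4n and ends 6.5 kb before Clec4e. Gm44132 lies within the locus of Clec4a2 without sharing an exon, and no member shares an exon with another gene. Of the 50-base stretches of its transcripts, Clec4a2 shares 6.69% with other genes, among them its relatives Clec4a4 and Clec4b1. Clec4n shares 0.686%, Clec12a 0.402% and the other 5 members none. These are shares of sequence and not of reads, and their effect on the counts was not measured.

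RefSeq's promoter table (GRCm38.p6) held 7 of the 8 genes, all but Clec4n. The 250 bases before the listed start are shown for 4 of them, chosen because Clec4d and Clec7a were lower in both CSF2ra-/- comparisons, Clec4e is the nearest neighbour of Clec4d, and Clec12a moved the other way in untreated CSF2ra-/- cells. Capitals mark every match, on either strand, to 5 short motifs named for the factors PU.1, C/EBP, AP-1, STAT and GATA, whose letters are given after the sequences. Each sequence runs 5′ to 3′ on the gene's own strand, and no matches overlap in them. The RefSeq starts of Clec12a and of Clec4a2, whose window is not shown, lie inside their GENCODE loci.
Clec4d (chr6:123261857-123262106, plus strand): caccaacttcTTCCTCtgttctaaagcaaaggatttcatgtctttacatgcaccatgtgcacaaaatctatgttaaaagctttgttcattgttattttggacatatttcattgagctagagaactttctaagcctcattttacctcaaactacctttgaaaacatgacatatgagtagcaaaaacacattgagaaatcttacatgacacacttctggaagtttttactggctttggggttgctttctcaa
Clec4e (chr6:123289872-123290121, minus strand): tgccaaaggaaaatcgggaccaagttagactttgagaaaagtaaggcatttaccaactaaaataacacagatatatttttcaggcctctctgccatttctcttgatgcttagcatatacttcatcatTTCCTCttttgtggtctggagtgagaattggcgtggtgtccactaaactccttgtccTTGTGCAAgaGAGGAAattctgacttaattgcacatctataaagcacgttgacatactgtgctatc
Clec7a (chr6:129472780-129473029, minus strand): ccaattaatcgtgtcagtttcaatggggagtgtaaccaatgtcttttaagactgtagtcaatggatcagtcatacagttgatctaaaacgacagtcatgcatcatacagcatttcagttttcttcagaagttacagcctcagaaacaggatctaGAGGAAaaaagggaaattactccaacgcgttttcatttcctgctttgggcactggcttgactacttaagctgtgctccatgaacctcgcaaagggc
Clec12a (chr6:129349994-129350243, plus strand): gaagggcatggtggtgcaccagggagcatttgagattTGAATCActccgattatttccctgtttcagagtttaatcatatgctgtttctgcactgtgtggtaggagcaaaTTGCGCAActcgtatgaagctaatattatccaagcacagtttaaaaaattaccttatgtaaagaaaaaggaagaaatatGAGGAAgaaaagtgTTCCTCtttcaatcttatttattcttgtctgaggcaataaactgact

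The PU.1 letters, GAGGAA, occurred in 5 of the 7 windows (Clec4d, Clec4e, Clec7a, Clec4a1 and Clec12a) and in 23.1% of the 27025 windows of this length in the table. The C/EBP letters, TTNNGCAA, occurred in the windows of Clec4e and Clec12a and in 9.55% of all windows. The AP-1 letters, TGANTCA, occurred in that of Clec12a and in 6.87% of all windows, and the STAT letters, TTCNNNGAA, in that of Clec4a2 and in 7.18% of all. The GATA letters, AGATAA, occurred in 10.3% of all windows and in none of the 7. These matches describe the letters of the windows and were not related to binding in these cells.

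Per kilobase of exon, Clec12a and Clec4a2 were the most abundant members in all 8 groups. In WT cells with GM-CSF the mean levels were 64.6 ± 5.81 CPM per kilobase (RPKM; SD, n = 3) for Clec12a, 38.0 ± 9.92 RPKM for Clec4a2, 26.7 ± 3.92 RPKM for Clec4n and 16.04 ± 1.03 RPKM for Clec7a. Clec4d (8.03 ± 1.67 RPKM) and Clec4e (6.995 ± 1.95 RPKM) did not differ beyond their spread, and Clec4a3 (1.47 ± 0.417 RPKM) and Clec4a1 (0.896 ± 0.573 RPKM) came last. Clec4n ranked 3 in the GM-CSF groups of WT cells and of the libraries labelled Irf5-/-, 6 in both CSF2ra-/- groups and in the untreated groups of the other genotypes, and 8 in WT cells with IL-10. Among all tested genes, 84.7% had a lower level per kilobase than Clec4n in WT cells with GM-CSF and 39.6% in untreated WT cells. With the longest transcript as the length in place of the union of exons, Clec12a came to 111 RPKM in WT cells with GM-CSF and still stood above the other members.

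**Figure D1:**
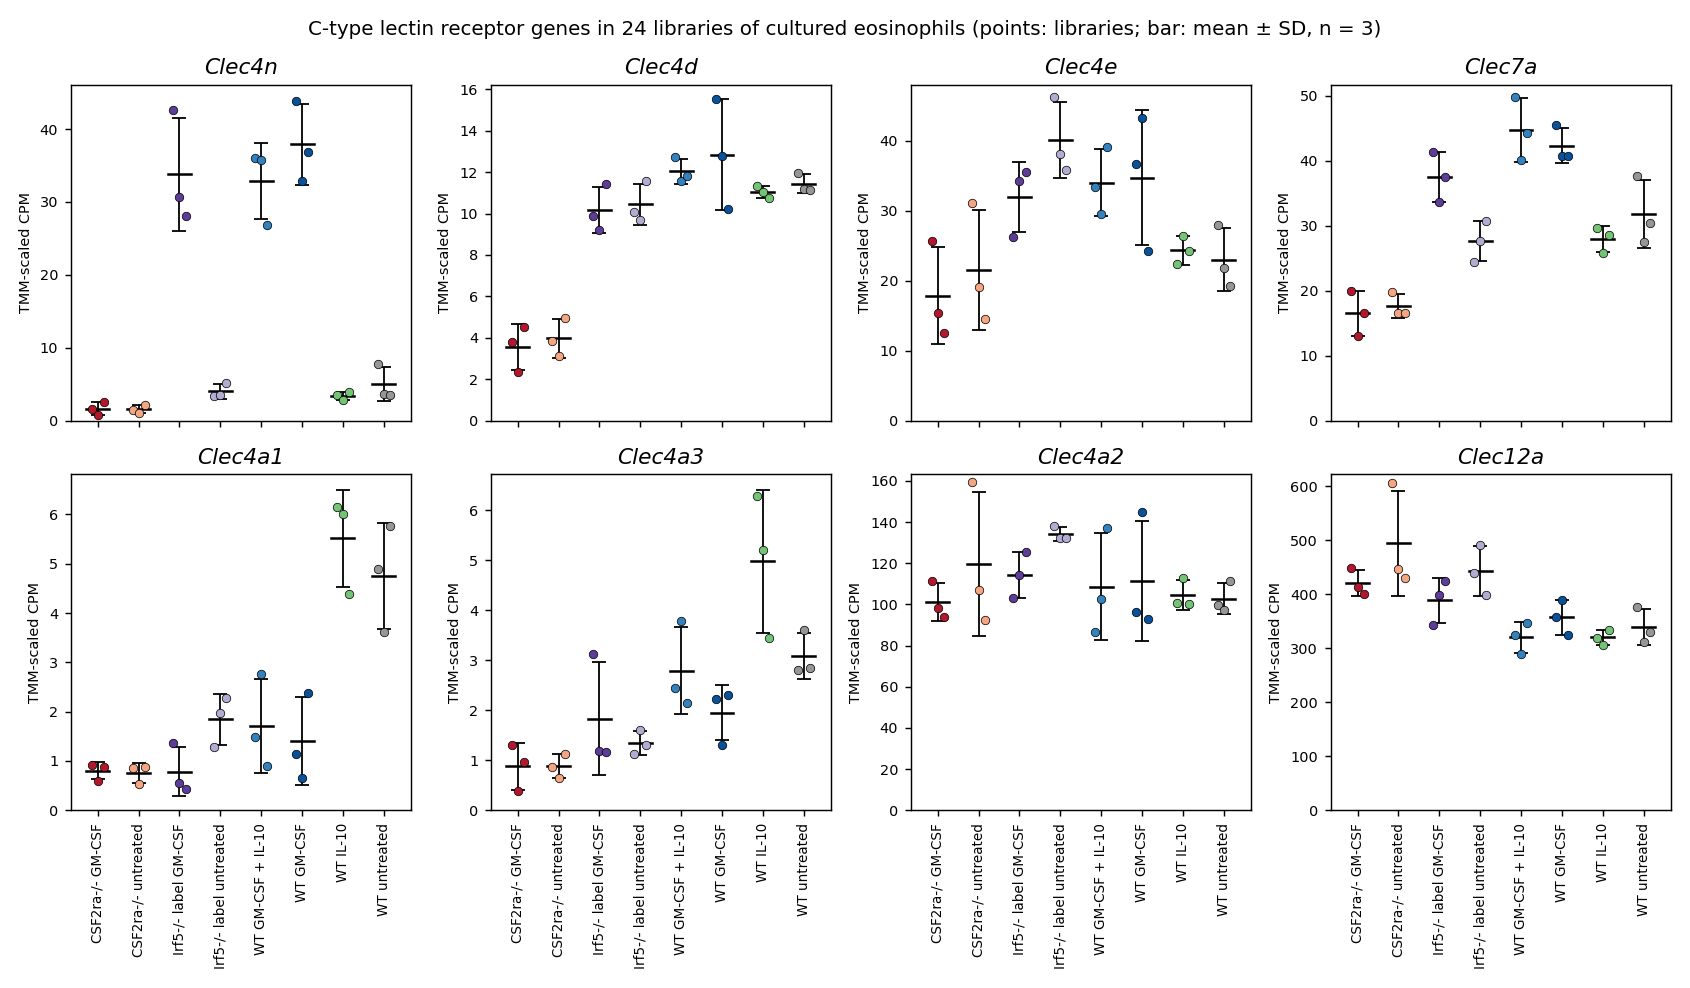
TMM-scaled CPM of the 8 lectin receptor genes in each of the 24 libraries, by group; points are libraries and bars are mean ± SD (n = 3), with a y axis of its own in each panel. Clec4n stands at 26.9 to 43.9 CPM in the 3 GM-CSF groups outside CSF2ra-/- and at 0.752 to 7.78 CPM in the other 5 groups.

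The first question was how the receptor genes respond to GM-CSF. In WT cells 2 of the 8 members passed the test at an adjusted p under 0.05, against 66 of all 11885 genes (0.555%): Clec4n was higher and Clec4a1 lower. Clec4n stood at 43.9, 32.9 and 36.9 CPM in WT cells with GM-CSF, against 7.78, 3.70 and 3.59 CPM in untreated WT cells. All treated libraries lay far above the untreated ones, of which replicate 1 was the highest. The log2 fold change was 2.89 ± 0.28 (SE; 95% interval 2.30 to 3.48; edgeR adjusted p = 4.43e-06), a fold of 7.43, and Clec4n ranked 3 of all tested genes by p.

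Clec4n was also higher with GM-CSF in 2 other settings. With IL-10 in both arms, Clec4n stood at 36.0, 35.8 and 26.9 CPM in WT cells with GM-CSF and IL-10, against 3.48, 2.87 and 3.96 CPM in WT cells with IL-10 alone. No library of the IL-10 group came near those of the combined treatment, and the log2 fold change was 3.26 ± 0.30 (edgeR adjusted p = 1.13e-06). With GM-CSF, libraries labelled Irf5-/- had 42.6, 30.7 and 28.04 CPM of Clec4n, against 3.36, 3.56 and 5.23 CPM in untreated ones, a log2 fold change of 3.02 ± 0.30 (edgeR adjusted p = 7.06e-06). The call held in every alternative tried for these 3 comparisons.

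In CSF2ra-/- cells Clec4n stood at 1.68, 0.752 and 2.51 CPM with GM-CSF, against 1.48, 1.06 and 2.13 CPM untreated. The libraries of the 2 groups interleaved, and the log2 fold change of 0.07 ± 0.41 had a 95% interval of -0.78 to 0.93, which does not reach the responses of the other genotypes. The difference between the GM-CSF effect in CSF2ra-/- cells and that in WT cells was -2.82 ± 0.50 on the log2 scale (95% interval -3.86 to -1.77; edgeR adjusted p = 0.0266), and Clec4n was the only member called among 7 genes (0.0589%). The value lay between -3.29 and -2.44 in all 20 alternatives, but its call was kept in 10. It was lost with limma-voom (adjusted p = 0.0901), when the fit held the 4 groups alone (0.26), without the libraries labelled Irf5-/- (0.057), and when CSF2ra-/- untreated replicate 1 or 3, CSF2ra-/- GM-CSF replicate 1 or 2, WT untreated replicate 2 or 3 or WT GM-CSF replicate 1 was left out (0.0675 to 0.264). For the other 7 members the intervals of this difference were wide, as with Clec4a1 at 1.93 ± 0.66 (0.55 to 3.30) and Clec7a at -0.49 ± 0.20 (-0.91 to -0.07), and none passed the adjusted threshold.

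**Figure D2:**
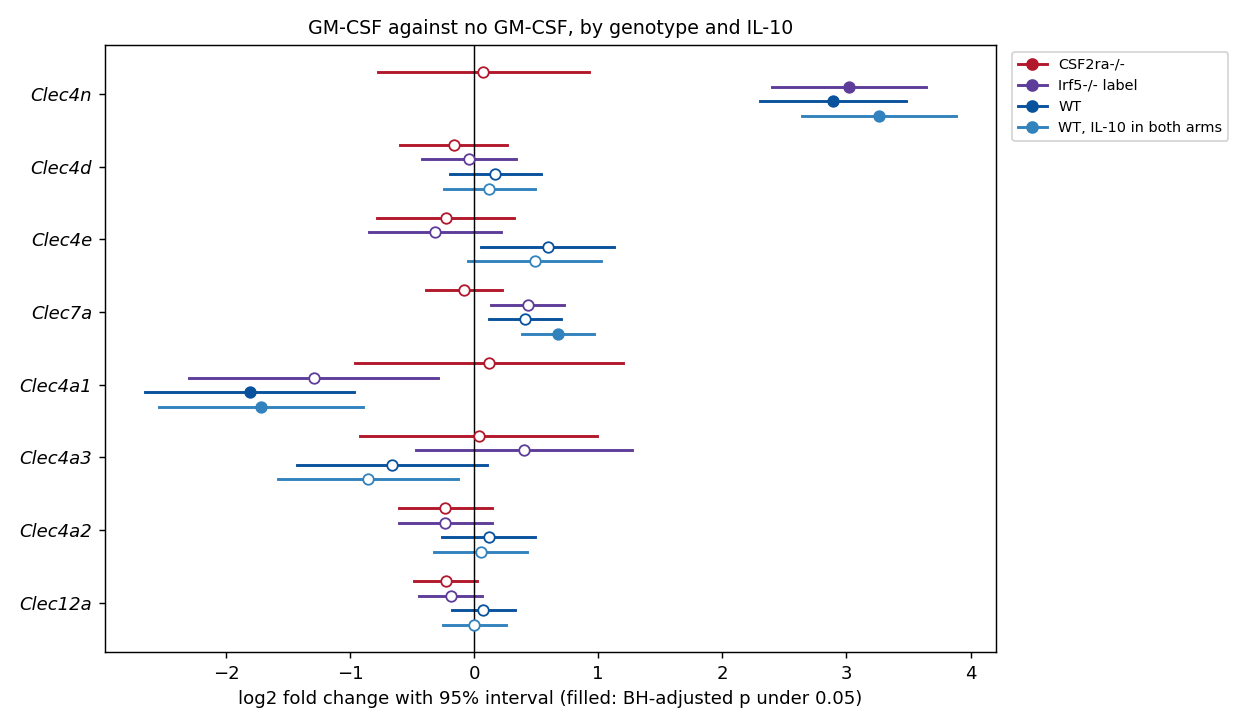
Log2 fold change (x axis) of GM-CSF against no GM-CSF for each receptor gene, by genotype and IL-10; lines are 95% intervals and filled points have a BH-adjusted p under 0.05. Clec4n lies at 0.07 in CSF2ra-/- cells and at 2.89 to 3.26 in the libraries labelled Irf5-/- and WT cells.

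The adjacent gene Clec4d did not pass the test with GM-CSF. It stood at 15.5, 12.8 and 10.2 CPM in WT cells with GM-CSF, against 11.96, 11.2 and 11.1 CPM in untreated WT cells, and these groups overlapped. Its log2 fold change was -0.04 ± 0.18 (95% interval -0.42 to 0.34) in the libraries labelled Irf5-/- and 0.17 ± 0.18 (-0.20 to 0.54) in WT cells, so that a rise of the size seen for Clec4n lay outside both intervals. The ratio of Clec4n to Clec4d reads within a library, which does not depend on scaling, was 2.82, 2.58 and 3.62 in WT cells with GM-CSF, against 0.650, 0.331 and 0.322 in untreated WT cells. It was 2.28 to 3.09 with GM-CSF and IL-10 and 2.46 to 4.31 with GM-CSF in the libraries labelled Irf5-/-. In CSF2ra-/- cells with GM-CSF it was 0.443, 0.323 and 0.557, within the range of the untreated groups.

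**Figure D3:**
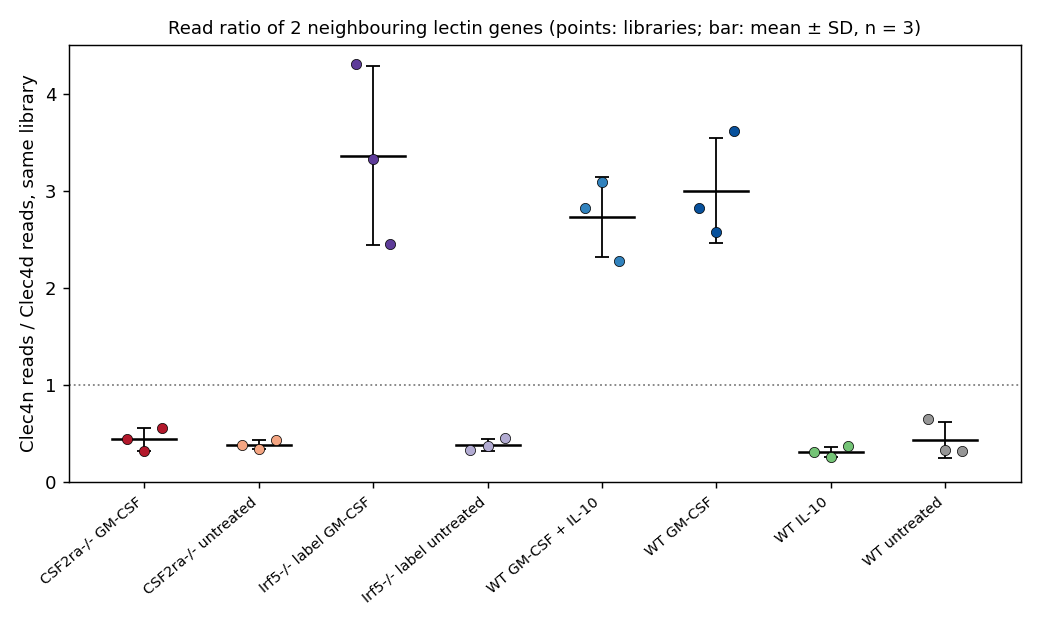
Ratio of Clec4n to Clec4d read counts within each library (y axis), by group; points are libraries, bars are mean ± SD (n = 3) and the dotted line marks equal counts. The 9 libraries of the 3 GM-CSF groups outside CSF2ra-/- lie at 2.28 to 4.31 and the other 15 at 0.261 to 0.650.

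Clec4e, the gene next to Clec4d, stood at 36.7, 43.3 and 24.2 CPM in WT cells with GM-CSF, against 28.03, 21.9 and 19.2 CPM in untreated WT cells. The groups overlapped, and the log2 fold change of 0.59 ± 0.26 did not pass (edgeR adjusted p = 0.689). In the libraries labelled Irf5-/- it lay the other way, at 26.3, 34.2 and 35.5 CPM with GM-CSF, against 46.2, 38.2 and 35.9 CPM untreated (-0.32 ± 0.26, adjusted p = 0.996). The difference between these 2 effects, libraries labelled Irf5-/- minus WT, was -0.91 ± 0.36 (95% interval -1.66 to -0.15; adjusted p = 0.987). In that comparison edgeR called 0 of all genes (0%), with 1 of the 8 members, Clec4e, and 375 of all genes (3.16%) at an unadjusted p under 0.05, and neither DESeq2 nor limma-voom called a member.

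Clec7a passed the test with GM-CSF where IL-10 was present. It stood at 49.8, 40.1 and 44.3 CPM in WT cells with GM-CSF and IL-10, against 29.6, 25.8 and 28.6 CPM in WT cells with IL-10, a log2 fold change of 0.68 ± 0.14 (edgeR adjusted p = 0.016). In this comparison 3 of the 8 members passed, against 102 of all genes (0.858%): Clec4n and Clec7a were higher and Clec4a1 lower. The Clec7a call was lost without WT GM-CSF with IL-10 replicate 1 (adjusted p = 0.0988) and without WT IL-10 replicate 1 (0.0561) or 2 (0.127). Without IL-10, Clec7a stood at 45.4, 40.7 and 40.7 CPM in WT cells with GM-CSF, against 37.6, 27.5 and 30.4 CPM in untreated WT cells. The groups did not overlap, and the log2 fold change of 0.41 ± 0.14 did not pass (adjusted p = 0.384). The GM-CSF effect on Clec7a with IL-10 minus that without was 0.27 ± 0.20 (interval -0.14 to 0.67) and was not called. A dependence of the Clec7a response on IL-10 was thus not shown. The libraries labelled Irf5-/- gave 41.4, 33.7 and 37.6 CPM with GM-CSF, against 24.5, 27.7 and 30.6 CPM untreated (0.43 ± 0.14, adjusted p = 0.407), and Clec4n was the 1 member called there, against 42 of all genes (0.353%).

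Clec4a1 was the member that fell with GM-CSF. It stood at 1.14, 0.658 and 2.39 CPM in WT cells with GM-CSF, against 4.90, 3.62 and 5.76 CPM in untreated WT cells, and these groups did not overlap. The log2 fold change was -1.81 ± 0.41 (edgeR adjusted p = 0.0409), and with IL-10 in both arms it was -1.72 ± 0.40 (adjusted p = 0.0367). Both calls rest on few reads, 6 to 92 counts per library over the series, and on single libraries. The WT call was lost without WT untreated replicate 1, 2 or 3 or WT GM-CSF replicate 1 or 2 (0.0746 to 0.289), and the call with IL-10 without WT GM-CSF with IL-10 replicate 1 or 3 or WT IL-10 replicate 1 or 2 (0.173 to 0.257). Without the libraries labelled Irf5-/- the adjusted p was 0.0521 for the WT call and 0.0528 for the call with IL-10, and with each comparison's own groups fitted alone 0.0894 and 0.0655.

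Clec4a3 stood at 2.23, 1.32 and 2.32 CPM in WT cells with GM-CSF, against 2.81, 3.62 and 2.84 CPM in untreated WT cells (-0.66 ± 0.37, adjusted p = 0.848). Monocyte and macrophage markers were read beside these 2 genes. Cx3cr1, which encodes the fractalkine receptor of monocytes and macrophages, was 1 of 14 tested markers of those cells called in the WT comparison. It was lower (-3.06 ± 0.66, edgeR adjusted p = 0.0307), at means of 0.212 CPM with GM-CSF and 1.87 CPM untreated. The median log2 fold change of the 14 was -0.32, against -0.01 over all tested genes, with markers on both sides. Cd14 averaged 21.5 CPM with GM-CSF against 14.1 CPM untreated, and Mrc1 8.42 against 20.5 CPM, and neither was called. The sum of 14 of the 15 listed markers, leaving out Ly6c2 because it alone averaged 1217 to 1576 CPM in every group, was 243, 249 and 282 CPM in WT cells with GM-CSF, against 280, 318 and 320 CPM in untreated WT cells. The sums of the 2 groups overlapped, and Csf1r alone averaged 137 CPM with GM-CSF and 159 CPM untreated. Marco was at 0 in every group. The part of such cells in the Clec4a1 and Clec4a3 values was not tested, and in these bulk libraries fewer cells of a type and less RNA per cell cannot be told apart.

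Neither inhibitory receptor gene passed the test with GM-CSF in WT cells. Clec4a2 stood at 96.3, 145 and 92.8 CPM in WT cells with GM-CSF, against 99.9, 97.0 and 111 CPM in untreated WT cells, and the log2 fold change of 0.12 ± 0.18 had an interval of -0.26 to 0.49. Clec12a stood at 358, 389 and 325 CPM with GM-CSF, against 377, 311 and 330 CPM untreated, with 0.07 ± 0.12 (-0.18 to 0.33). The ratio of Clec7a to Clec12a reads was 0.127, 0.105 and 0.126 in WT cells with GM-CSF, against 0.0997, 0.0883 and 0.0920 in untreated WT cells. In CSF2ra-/- cells edgeR called 0 of the 8 members and 0 of all genes with GM-CSF (0%). At an unadjusted p under 0.05 there were 0 members and 531 of all genes (4.47%), and neither DESeq2 nor limma-voom called a gene there. Without CSF2ra-/- untreated replicate 2 edgeR called 29 genes, none of them a member.

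The next question was how CSF2ra-/- cells differ from WT cells. The comparison of GM-CSF-treated cells shares its WT libraries with the WT response above, and the comparison of untreated cells shares the untreated ones. In untreated cells 6 of the 8 members passed, against 1288 of all genes (10.8%): Clec4n, Clec4d, Clec7a, Clec4a1 and Clec4a3 were lower and Clec12a higher in CSF2ra-/- cells. With 1 library left out, the count over all genes lay between 291 (without WT untreated replicate 2) and 2620 (without CSF2ra-/- untreated replicate 2), and that of members between 4 and 6. With GM-CSF 4 of the 8 passed, against 451 of all genes (3.79%), and Clec4n, Clec4d, Clec4e and Clec7a were all lower. The median log2 fold change of the 8 members was -1.19 untreated and -1.02 with GM-CSF, against 0.003 and -0.003 over all tested genes.

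Clec4n had the lowest p of all 11885 genes in the comparison with GM-CSF. It stood at 1.68, 0.752 and 2.51 CPM in CSF2ra-/- cells, against 43.9, 32.9 and 36.9 CPM in WT cells, a log2 fold change of -4.51 ± 0.32 (edgeR adjusted p = 2.11e-08). In untreated cells, where no GM-CSF had been added, it stood at 1.48, 1.06 and 2.13 CPM in CSF2ra-/- cells, against 7.78, 3.70 and 3.59 CPM in WT cells (-1.69 ± 0.36, adjusted p = 0.00636), and the call was lost with only these 2 groups in the fit (adjusted p = 0.0827). Clec4n was thus lower in CSF2ra-/- libraries at both conditions, and the groups overlapped at neither.

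Clec4d, which had not passed the test with GM-CSF in WT cells, differed between the genotypes at both conditions. It stood at 3.82, 3.12 and 4.97 CPM in untreated CSF2ra-/- cells, against 11.96, 11.2 and 11.1 CPM in untreated WT cells (-1.52 ± 0.20, edgeR adjusted p = 9.35e-05). With GM-CSF it stood at 3.78, 2.33 and 4.51 CPM in CSF2ra-/- cells, against 15.5, 12.8 and 10.2 CPM in WT cells (-1.85 ± 0.19, adjusted p = 2.53e-06). All 6 CSF2ra-/- libraries lay below all 18 others for this gene, as they did for Clec4n and Clec7a. Both Clec4d calls held in every alternative tried.

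Clec7a was likewise lower in CSF2ra-/- cells at both conditions. It stood at 19.9, 16.6 and 16.6 CPM in untreated CSF2ra-/- cells, against 37.6, 27.5 and 30.4 CPM in untreated WT cells (-0.86 ± 0.14, edgeR adjusted p = 0.000944), and at 19.9, 13.0 and 16.6 CPM in CSF2ra-/- cells with GM-CSF, against 45.4, 40.7 and 40.7 CPM in WT cells with GM-CSF (-1.35 ± 0.14, adjusted p = 2.65e-06). Both calls held in every alternative tried. Clec4e stood at 25.7, 15.4 and 12.5 CPM in CSF2ra-/- cells with GM-CSF, against 36.7, 43.3 and 24.2 CPM in WT cells, and was called lower (-0.95 ± 0.26, adjusted p = 0.0418) although the groups overlapped. That call was kept in 7 of 14 alternatives and lost without CSF2ra-/- GM-CSF replicate 2 or 3 or WT GM-CSF replicate 1 or 2 (0.136 to 0.213), without the low-count filter (0.0882), when these groups were fitted alone (0.204) and without the libraries labelled Irf5-/- (0.0883). In untreated cells Clec4e differed by -0.13 ± 0.26 (95% interval -0.68 to 0.42), with 31.1, 19.1 and 14.5 CPM in CSF2ra-/- cells, against 28.03, 21.9 and 19.2 CPM in WT cells.

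**Figure D4:**
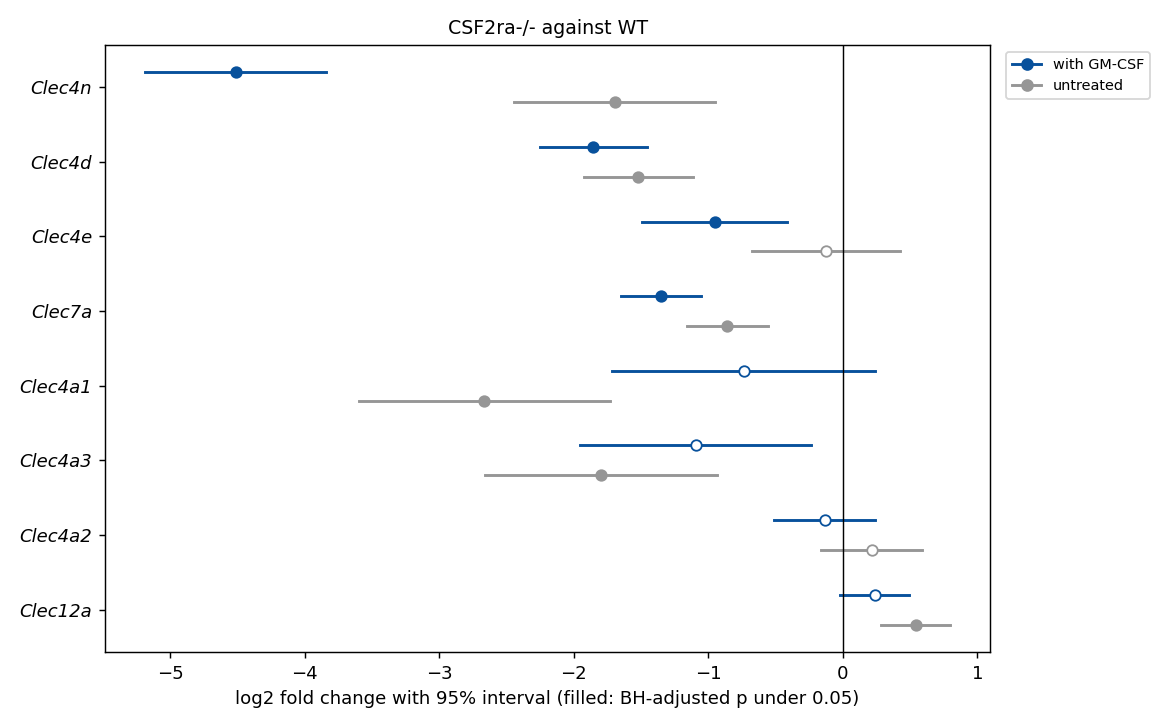
Log2 fold change (x axis) of CSF2ra-/- against WT cells for each receptor gene, with GM-CSF and untreated; lines are 95% intervals and filled points have a BH-adjusted p under 0.05. Clec4n lies at -4.51 with GM-CSF and -1.69 untreated, and Clec4d at -1.85 and -1.52.

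Clec4a1 and Clec4a3 were lower in untreated CSF2ra-/- cells. Clec4a1 stood at 0.863, 0.530 and 0.887 CPM there, against 4.90, 3.62 and 5.76 CPM in untreated WT cells (-2.67 ± 0.45, edgeR adjusted p = 0.000944), a call held in every alternative tried. Clec4a3 stood at 0.863, 0.648 and 1.12 CPM, against 2.81, 3.62 and 2.84 CPM (-1.80 ± 0.41, adjusted p = 0.0106), and lost its call without WT untreated replicate 2 (0.056). With GM-CSF the same comparison gave -0.74 ± 0.47 for Clec4a1 (adjusted p = 0.543) and -1.09 ± 0.41 for Clec4a3 (adjusted p = 0.187).

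Beside these falls, 9 of 14 tested markers of monocytes and macrophages were lower in untreated CSF2ra-/- cells and none higher, with a median log2 fold change of -2.18. Among them were Mrc1, the mannose receptor (-2.91 ± 0.79), and C1qb (-3.20 ± 0.83) and C1qc (-4.21 ± 0.98), which encode complement chains. Mrc1 averaged 2.67 CPM in untreated CSF2ra-/- and 20.5 CPM in untreated WT cells, C1qb 1.00 and 8.68 CPM, and C1qc 0.322 and 5.56 CPM. Of the markers not called, Csf1r averaged 123 and 159 CPM in the same groups. Ly6c2 (1576 and 1290 CPM) and Fcgr1 (2.53 and 1.70 CPM) had higher means in the CSF2ra-/- cells. The sum of the markers without Ly6c2 was 193, 172 and 159 CPM in untreated CSF2ra-/- cells, against 280, 318 and 320 CPM in untreated WT cells, and with Ly6c2 it was 1503 to 2108 CPM, against 1550 to 1659 CPM. Mertk and Marco were at 0 in the untreated CSF2ra-/- group, and C1qa and Marco in the CSF2ra-/- group with GM-CSF. Of 10 neutrophil markers 3 were lower (S100a9, Camp and Ltf) and of 6 tested dendritic cell markers 3 (Zbtb46, Siglech and Ccr7), and the sum of the 8 listed dendritic cell markers was 5.54 to 7.03 CPM, against 13.4 to 16.3 CPM. Of 9 eosinophil markers, Ccr3 (-0.71 ± 0.18) and Alox15 (-0.61 ± 0.12) were lower and Epx (0.34 ± 0.10) higher, and of 5 tested mast cell and basophil markers Cpa3 was higher (0.62 ± 0.16). With GM-CSF Epx was again higher (0.48 ± 0.10), and 3 of the 14 macrophage markers were lower (Ccr2, Cd68 and Cd14), as were 3 neutrophil and 3 dendritic cell markers. The part of other cell types in the lower receptor levels was not tested.

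Clec12a was the 1 member called higher in CSF2ra-/- cells. It stood at 606, 446 and 431 CPM in untreated CSF2ra-/- cells, against 377, 311 and 330 CPM in untreated WT cells, and these groups did not overlap (0.54 ± 0.12, edgeR adjusted p = 0.00966). The call was lost without CSF2ra-/- untreated replicate 1 (0.0778), the library with the highest level, without WT untreated replicate 2 (0.0722) and with only these groups in the fit (0.165). With GM-CSF Clec12a stood at 448, 413 and 401 CPM in CSF2ra-/- cells, against 358, 389 and 325 CPM in WT cells (0.24 ± 0.12, adjusted p = 0.407). Clec4a2, the other inhibitory receptor gene, stood at 159, 107 and 92.6 CPM in untreated CSF2ra-/- cells, against 99.9, 97.0 and 111 CPM in untreated WT cells (0.21 ± 0.18, 95% interval -0.16 to 0.59).

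In the libraries labelled Irf5-/- edgeR called 0 of the 8 members against WT cells, either untreated, where 4 of all genes passed (0.0337%), or with GM-CSF, where 4 passed (0.0337%). At an unadjusted p under 0.05 there were 5 members and 1668 of all genes (14%) untreated, and 0 members and 173 genes (1.46%) with GM-CSF, and neither DESeq2 nor limma-voom called a member in either. The untreated result depended on which libraries entered the fit: with only these 2 groups, 5 of the 8 members passed and 562 of all genes (4.95%). The log2 fold changes of the 5 stood at -1.29, -1.14, 0.39, 0.39 and 0.79 in that fit, for Clec4a1, Clec4a3, Clec4a2, Clec12a and Clec4e in this order. Clec4a1 stood at 1.28, 1.96 and 2.29 CPM in the untreated libraries labelled Irf5-/-, against 4.90, 3.62 and 5.76 CPM in untreated WT cells (-1.31 ± 0.40 over all libraries, adjusted p = 0.285, and 0.0166 with only these groups). Clec4a3 was at -1.16 ± 0.40 (adjusted p = 0.292 over all libraries and 0.0341 with only these groups), Clec4e at 0.79 ± 0.26 (0.285 and 0.00766), Clec4a2 at 0.39 ± 0.18 (0.346 and 0.025) and Clec12a at 0.38 ± 0.12 (0.285 and 0.0447). Clec4n, by contrast, stood at 3.36, 3.56 and 5.23 CPM in the untreated libraries labelled Irf5-/-, overlapping the WT values, with a log2 fold change of -0.29 ± 0.32 (95% interval -0.96 to 0.37). The GM-CSF effect on Clec4n in the libraries labelled Irf5-/- minus that in WT cells was 0.13 ± 0.40 (-0.72 to 0.97).

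IL-10 changed no member past the threshold. Against untreated WT cells edgeR called 0 of the 8 members and 6 of all genes (0.0505%) with IL-10, and against WT cells with GM-CSF it called 0 of the 8 and 6 of all genes (0.0505%) with GM-CSF and IL-10. No member had an unadjusted p under 0.05 in either, where 539 of all genes (4.54%) and 382 of all genes (3.21%) did, and neither DESeq2 nor limma-voom called one. Clec4a3 stood at 6.29, 5.21 and 3.44 CPM in WT cells with IL-10, the highest mean of the 8 groups, against 2.81, 3.62 and 2.84 CPM in untreated WT cells (0.70 ± 0.35, 95% interval -0.03 to 1.43). For Clec4n the difference was -0.58 ± 0.32 (-1.24 to 0.09) with IL-10 against untreated and -0.21 ± 0.25 (-0.72 to 0.31) with GM-CSF and IL-10 against GM-CSF. The GM-CSF effect on Clec4n with IL-10 minus that without was 0.37 ± 0.40 (-0.47 to 1.21). In that comparison edgeR called 0 of all genes (0%), with 0 members and 149 of all genes (1.25%) at an unadjusted p under 0.05. There limma-voom called none and DESeq2 called 1 gene, which was no member.

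Against untreated WT cells, GM-CSF with IL-10 gave 1 called member, Clec4n, beside 178 of all genes (1.5%). Its log2 fold change was 2.69 ± 0.28 (edgeR adjusted p = 9.78e-06). Clec7a at 0.49 ± 0.14 (adjusted p = 0.0873) and Clec4a1 at -1.50 ± 0.40 (adjusted p = 0.0612) fell short, although their groups did not overlap. DESeq2 called both of them (0.0334 and 0.0271), and limma-voom called Clec4a1 (0.0135).

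Few genes of the signalling pathways downstream of the receptors passed the test. Of 21 genes of the activating pathway, among them Fcer1g, Syk and Card9, none passed with GM-CSF in WT cells or in untreated CSF2ra-/- against WT cells, and 1, Malt1, a protease that acts with Card9 and Bcl10, was lower in CSF2ra-/- cells with GM-CSF (-0.91 ± 0.17, adjusted p = 0.0017). Malt1 was higher with GM-CSF and IL-10 against IL-10 (0.76 ± 0.17, adjusted p = 0.0261) and against untreated WT cells (0.68 ± 0.17, adjusted p = 0.0378). Mean levels with GM-CSF were 485 CPM in CSF2ra-/- and 460 CPM in WT cells for Fcer1g, 395 and 427 CPM for Syk, and 112 and 87.0 CPM for Card9. Of 6 genes of inhibitory signalling, including Ptpn6 and Ptpn11, none passed in any of the 11 comparisons between groups. The medians of the activating list were 0.01 with GM-CSF in WT cells and -0.07 in untreated CSF2ra-/- against WT cells, close to those over all genes (-0.01 and 0.00).

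Among 23 other C-type lectin receptor genes, 16 were tested. In untreated CSF2ra-/- against WT cells 4 were lower, namely Clec5a, a receptor that signals through an adaptor shared with other myeloid receptors (-1.55 ± 0.31, adjusted p = 0.00391), the galactose-binding receptor genes Clec10a (-1.93 ± 0.54, adjusted p = 0.0296) and Mgl2 (-1.91 ± 0.51, adjusted p = 0.0259), and Mrc1, which also stands in the macrophage list. The activation marker Cd69 (0.83 ± 0.18, adjusted p = 0.00623) and Clec2i (0.95 ± 0.27, adjusted p = 0.0329) were higher. With GM-CSF again 4 were lower (Clec5a, Mgl2, Cd209a and Clec2d) and 2 higher (Cd69 and Clec2i). With GM-CSF against untreated in WT cells none of the 16 was called, and Clec5a averaged 9.12 against 4.73 CPM. Clec5a was called higher with GM-CSF and IL-10 against IL-10 (1.26 ± 0.26, adjusted p = 0.0163), at means of 10.9 against 4.55 CPM. Against untreated WT cells the combined treatment gave 1.18 ± 0.26 (adjusted p = 0.0182). The GM-CSF effect with IL-10 minus that without was called for none of the 16. A dependence of the Clec5a response on IL-10 was thus not shown.

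Some members varied together across the 24 libraries. These correlations are descriptions over libraries that share groups, and the deviations of each library from its group mean remove the group differences. With the group means taken out, and with a shared source of libraries not tested, the deviations are not 24 independent points. Clec4n and Clec7a had a Pearson r of 0.91 over the 24 libraries and 0.66 in the deviations, and Clec4n and Clec4d 0.71 and 0.72. Clec4a1 and Clec4a3, which lie 17.9 kb apart, had 0.82 and 0.75. Clec4e, Clec12a and Clec4a2 varied together within groups, with r in the deviations of 0.79 for Clec4e and Clec12a, 0.71 for Clec4e and Clec4a2 and 0.68 for Clec4a2 and Clec12a, although Clec4e lies 6052.8 kb from Clec12a. Clec4e and Clec4d, which lie 6.5 kb apart, had 0.03. With the log2 sum of macrophage markers without Ly6c2, Clec4a3 had an r of 0.89 over the 24 libraries and 0.51 in the deviations, Clec4a1 0.80 and 0.64, Clec4d 0.74 and -0.28, Clec7a 0.61 and 0.01, Clec4n 0.36 and -0.13, and Clec12a -0.72 and -0.20.

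**Figure D5:**
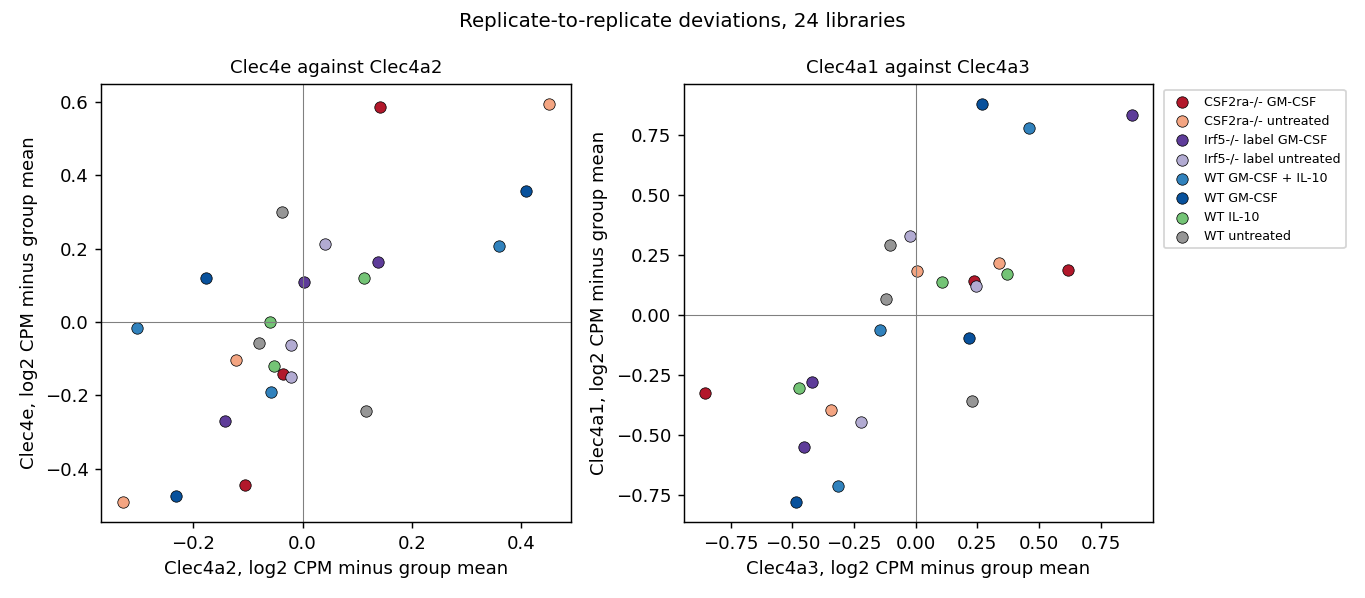
Log2 CPM of each library minus its group mean for Clec4e (y axis) against Clec4a2 (x axis), left, and for Clec4a1 against Clec4a3, right; points are the 24 libraries, coloured by group. Pearson r is 0.71 on the left and 0.75 on the right.

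The genes most like each member over the 24 libraries, among 9117 candidates, were the chemokine genes Ccl22 (r = 0.977) and Ccl4 (0.97) and the receptor gene Tlr2 (0.956) for Clec4n. For Clec4d they were the gelatinase gene Mmp9 (0.93), the oxysterol receptor gene Gpr183 (0.928) and Lcn2 (0.924), which encodes an iron-siderophore-binding protein. For Clec7a they were the lipase gene Lpl (0.978), the elastase gene Mmp12 (0.958) and Chil3 (0.951), a chitinase-like gene. Clec4a1 was most like Igf1 (0.921), Slc37a2 (0.908) and Trem2 (0.9), and Clec4a3 most like Dab2 (0.932), Mrc1 (0.931) and Arg1 (0.93). Clec4e was most like Ifrd1 (0.845), Fcrls (0.818) and Degs1 (0.815), Clec4a2 most like Map2k3 (0.899), Rab8a (0.892) and Rit1 (0.882), and Clec12a most like Rnaseh2b (0.938), Pnp (0.936) and Birc5 (0.935). The points share group means and depth, and likeness is a description only.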

How the data were processed

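Stranded mRNA libraries were sequenced from 24 eosinophil samples in 8 groups of 3, per the labels' protocols. The authors deposited raw read counts per Ensembl gene for each library. The submitters' processing notes name STAR, featureCounts and GRCm38.p6 without tool versions; the strand setting is not given in the sources used here. Symbols, coordinates and lengths came from GENCODE vM21 on GRCm38, and 111 IDs without a symbol held 0.039% of counts. Counts were scaled by TMM (factors 0.939 to 1.031), filtered with filterByExpr (minimum count 10) and fitted with edgeR 4.0.16 in R 4.3.3 as 8 group means over all 24 libraries by robust quasi-likelihood (biological coefficient of variation 14.1%). P-values were Benjamini-Hochberg adjusted over 11885 genes, with a threshold of 0.05, and log2 fold changes are given ± SE. The SE was derived from the test, as the absolute log2 fold change divided by the square root of the quasi-likelihood F. The 95% intervals were built from this SE. The fit was tested on simulated counts, drawn independently and with the same spread setting for every gene. That test does not cover a shared source of libraries, an unequal spread between genes or changes in genes with few reads. Alternatives used limma 3.58.1 and DESeq2 1.42.0. Every member is named whatever its value, other list genes where they passed, and for likeness the 3 genes with the highest r. Members, lists and tests were chosen with earlier results of these data known.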

Additional observations from a re-analysis of the deposited data

Results flagged for a closer look

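The GM-CSF effect on Clec4n differed between CSF2ra-/- and WT cells by a test of the difference itself, at -2.82 ± 0.50 on the log2 scale (edgeR adjusted p = 0.0266). The difference kept its sign in all 20 alternatives, but its call was kept in only 10. The effect was 0.07 ± 0.41 in CSF2ra-/- cells and 2.89 ± 0.28 in WT cells. Clec4n had 10 to 768 reads per library over the series.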

How the results depend on the processing

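No member's called log2 fold change changed sign under any alternative: 18 of 18 kept their direction, and 10 of 18 were called in all of them. No paired fit was run, as the labels give each library a number of its own and tie no library to another. The Y-linked sums of libraries labelled Irf5-/- were 163, 13.2 and 44.0 CPM with GM-CSF and 178, 12.1 and 39.3 CPM untreated, in accession order. In the same order, the log2 deviations of Clec4e from its CSF2ra-/- group means were 0.587, -0.143 and -0.444 with GM-CSF and 0.596, -0.104 and -0.492 untreated. Whether libraries share a source was not tested. The p-values treat all libraries as independent and take no account of a pairing by source. When each comparison was fitted on its own groups alone, 1 member was called for GM-CSF in WT cells (63 of 11396 genes). For the libraries labelled Irf5-/- against WT cells untreated it was 5 (562 of 11344). This setting also lost Clec4n and Clec12a in untreated CSF2ra-/- against WT cells, Clec4e in that comparison with GM-CSF, and Clec4a1 with IL-10 in both arms. The difference of GM-CSF effects between CSF2ra-/- and WT cells gave 0 members (3 of 11619 genes). That difference also gave 0 with limma-voom (5 of all genes). In an alternative chosen after seeing the data, without the 6 libraries labelled Irf5-/-, it gave 0 (5 of all genes) and GM-CSF in WT cells 1 (57). GM-CSF with IL-10 against untreated WT cells gave 3 with DESeq2 (296 of all genes) and 2 with limma-voom (182). Leaving out 1 library at a time gave 1 to 2 members for GM-CSF in WT cells, 1 to 3 for GM-CSF with IL-10 against IL-10, 1 to 2 for GM-CSF with IL-10 against untreated, and 0 to 1 for the difference between CSF2ra-/- and WT cells. For CSF2ra-/- against WT cells it gave 4 to 6 untreated and 3 to 4 with GM-CSF. The cause was not tested. Over all genes DESeq2 called more than edgeR with GM-CSF in WT cells (112 against 66), in the libraries labelled Irf5-/- (78 against 42), with IL-10 in both arms (168 against 102), with GM-CSF and IL-10 against untreated (296 against 178) or against GM-CSF (21 against 6), with IL-10 alone (30 against 6), for the libraries labelled Irf5-/- against WT cells untreated (23 against 4) and with GM-CSF (8 against 4), and for the difference between CSF2ra-/- and WT cells (27 against 7). DESeq2 also called more for CSF2ra-/- against WT cells, untreated (1643 against 1288) and with GM-CSF (593 against 451). For the difference of GM-CSF effects between libraries labelled Irf5-/- and WT cells it was 1 against 0, as for that with and without IL-10. In the libraries labelled Irf5-/- limma-voom called 19 with GM-CSF. Over all genes, leaving out 1 library gave 31 to 61 calls with GM-CSF in WT cells, 11 to 41 in the libraries labelled Irf5-/-, 0 to 29 in CSF2ra-/- cells, 44 to 100 with IL-10 in both arms, 75 to 162 for GM-CSF with IL-10 against untreated, and 222 to 436 for CSF2ra-/- against WT cells with GM-CSF. RLE scaling, a stricter filter and the Y-linked covariate moved no count of members by over 1.5 times. Depth limits Clec4a1 and Clec4a3, at 6 to 92 and 5 to 94 reads per library.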
